A study of Homo sapiens with 15 samples.

Results

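The genes of the proteasome were examined in MDA-MB231 cells after CtBP2 silencing or treatment with a CtBP2 inhibitor. Members were taken by name: every gene probe whose listed or current symbol begins with PSMA, PSMB, PSMC, PSMD, PSME, PSMF or PSMG followed by a digit. This gave 48 genes with 68 probes, of 30992 genes on the array. PSMG1, PSMG2, PSMG3 and PSME3IP1 were found through their current symbols, since the array lists them as DSCR2, TNFSF5IP1, MGC10911 and NIP30. PSMC3IP and PSME3IP1 match by name and are not subunits, which leaves 46 genes for subunits, regulators and assembly chaperones. PSMB11 and PSMG4 were not analysed here.

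The proteasome is the protease that degrades ubiquitin-tagged proteins in the nucleus and cytosol. Its barrel-shaped 20S core has outer alpha rings that gate the entry channel and inner beta rings that hold the cutting sites, and a 19S regulatory particle recognises, deubiquitinates, unfolds and threads substrates into it. After interferon exposure, cells replace the catalytic beta subunits with inducible ones to form the immunoproteasome, which shapes peptides for antigen presentation. When proteasome activity is limiting, the transcription factor NRF1 (NFE2L1) is known to raise the subunit genes together.

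MDA-MB231 is a triple-negative breast cancer cell line, and CtBP2 is an NADH-dependent transcriptional corepressor. The 15 two-colour Agilent arrays were 5 of cells with stable RNA interference of CtBP2 (shCtBP2 cells), 5 of cells treated with the small-molecule CtBP2 inhibitor HIPP and 5 of cells treated with the inhibitor P4, both collected after 24 h. Cy5 held the treated sample and Cy3 the control on every array, with no exchange of dyes, so a ratio tested against 0 can hold a dye effect of the gene. The labels name untreated MDA-MB231 cells as the control throughout, whereas the study's methods describe a scrambled shRNA control for shCtBP2 cells. All groups come from a single cell line, and the labels do not say whether shCtBP2 cells were a clone or a pool. The inhibitor doses are not in the labels.

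Values are log2 ratios of treated over control signal per array, averaged over the probes of a gene, and negative values are lower in the treated cells. CTBP2 itself had a mean log2 ratio of -0.41 ± 0.11 (SD, n = 5) in shCtBP2 cells and lay below 0 on 5 of 5 arrays, with an adjusted p of 0.0595 by limma. With HIPP it was called higher, at 0.57 ± 0.36 and above 0 on 5 of 5 arrays (adjusted p = 0.00256), and with P4 it had 0.17 ± 0.35 (adjusted p = 0.344). The replicate arrays of a treatment correlated over all genes with r from 0.3 to 0.569 for shCtBP2, 0.416 to 0.755 for HIPP and 0.0122 to 0.695 for P4. Of the cell line's markers, VIM, CD44, AXL, CAV1 and MSN were well above background on 15 of 15 arrays, PGR and CDH1 on 0 and ESR1 on 12 in the treated channel, whereas EPCAM, KRT19 and GATA3, listed as markers expected to be low, were well above background on 15. Of the markers of other cell types, PTPRC was well above background on 0 arrays and ALB on 1 in the treated channel, while CD14, PECAM1 and DES were on 15, 14 and 13. All members except PSMA8, a testis-specific alpha subunit that was not well above background on any array, were well above background in both channels of all 15 arrays.

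The 6 probes that read the catalytic beta subunits are shown first, because they read the cutting sites of the enzyme and their inducible replacements. PSMB5, PSMB6 and PSMB7 carry the chymotrypsin-like, caspase-like and trypsin-like sites of the standard core, and PSMB8, PSMB9 and PSMB10 are the respective subunits that replace them in the immunoproteasome. Each gene had 1 probe of 60 bases, printed from its 5′ end as deposited.
PSMB5: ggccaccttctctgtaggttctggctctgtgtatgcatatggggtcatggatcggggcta
PSMB8: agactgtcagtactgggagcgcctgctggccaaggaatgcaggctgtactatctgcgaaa
PSMB6: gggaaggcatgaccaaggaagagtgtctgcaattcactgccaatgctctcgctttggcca
PSMB9: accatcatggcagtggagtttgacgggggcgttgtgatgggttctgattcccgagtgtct
PSMB7: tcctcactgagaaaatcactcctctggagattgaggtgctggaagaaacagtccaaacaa
PSMB10: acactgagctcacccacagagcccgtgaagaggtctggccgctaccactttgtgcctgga
On the hg17 build that the files use, these probes lie at chr14:22565325-22565384, chr6:32918001-32918468, chr17:4648362-4648547, chr6:32931896-32931955, chr9:124195445-124195504 and chr16:66526048-66526232, in the order printed. The PSMB8, PSMB6 and PSMB10 probes extend over 468, 186 and 185 bases of genome and so cross an exon junction, and the others cover 60 contiguous bases. At their best ungapped alignment, the probes of a standard subunit and its replacement shared 20 of 60 bases for PSMB5 and PSMB8, 21 for PSMB6 and PSMB9 and 20 for PSMB7 and PSMB10, with no shared run longer than 8 bases.

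With HIPP, 19 of the 48 members were down-regulated and 6 up-regulated, while 11 were tested without a call and 12 had been removed by the study's interquartile filter. Over all genes tested, 23.9% were called lower and 24.9% higher with HIPP (48.7% in either direction), so the members were called lower more often and higher less often than genes at large, a difference that was not tested. Because that filter removes steady genes, the members left in it are those that varied, and without the filter 20 of the 48 were lower and 6 higher. The median log2 ratio was -0.10 over the 48 members and 0.07 over all genes. On mean signals without dye correction the median of all genes was -0.397 and 97.8% of all calls were lower, so that 23 members were lower and 0 higher and PSMB4, PSMB7, PSMD3, PSMD4, PSMD14 and PSMG3 had values below 0. Relative to all genes, the member median was -0.173 as reported and -0.374 on those signals. In RNA of whole cultures, a change in every cell and a larger one in part of the cells cannot be told apart.

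With P4, 13 members were down-regulated and 4 up-regulated, against 14.8% and 17.1% of all genes tested (31.9% in either direction). Of these 13, 1 is PSMC3IP, which is not a subunit, and 14 members were not tested. The median log2 ratio was -0.17 over the members and 0.08 over all genes, a difference of -0.247 that was 0.049 on mean signals without dye correction. In shCtBP2 cells 6 members were down-regulated and 1 up-regulated, against 6.95% and 6.59% of all genes tested, with 19 members not tested and a member median of -0.07 beside 0.02 over all genes. That difference of -0.097 turned to 0.187 on mean signals without dye correction and to 0.071 with slide as a fixed block.

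Against the fold thresholds of the study's methods, which are 1.5-fold for shCtBP2, 2.5-fold for HIPP and 1.8-fold for P4, a single member passed: PSMD5 was lower in shCtBP2 cells, where 3.23% of all genes tested passed downward and 3.34% upward. With HIPP 3.61% passed downward and 3.43% upward, and with P4 4.17% and 4.29%, none of them a member. The calls with HIPP and P4 are thus of changes below those thresholds. Since every treatment was read against control cells that the files do not tell apart, the 3 comparisons may share controls.

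**Figure D1:**
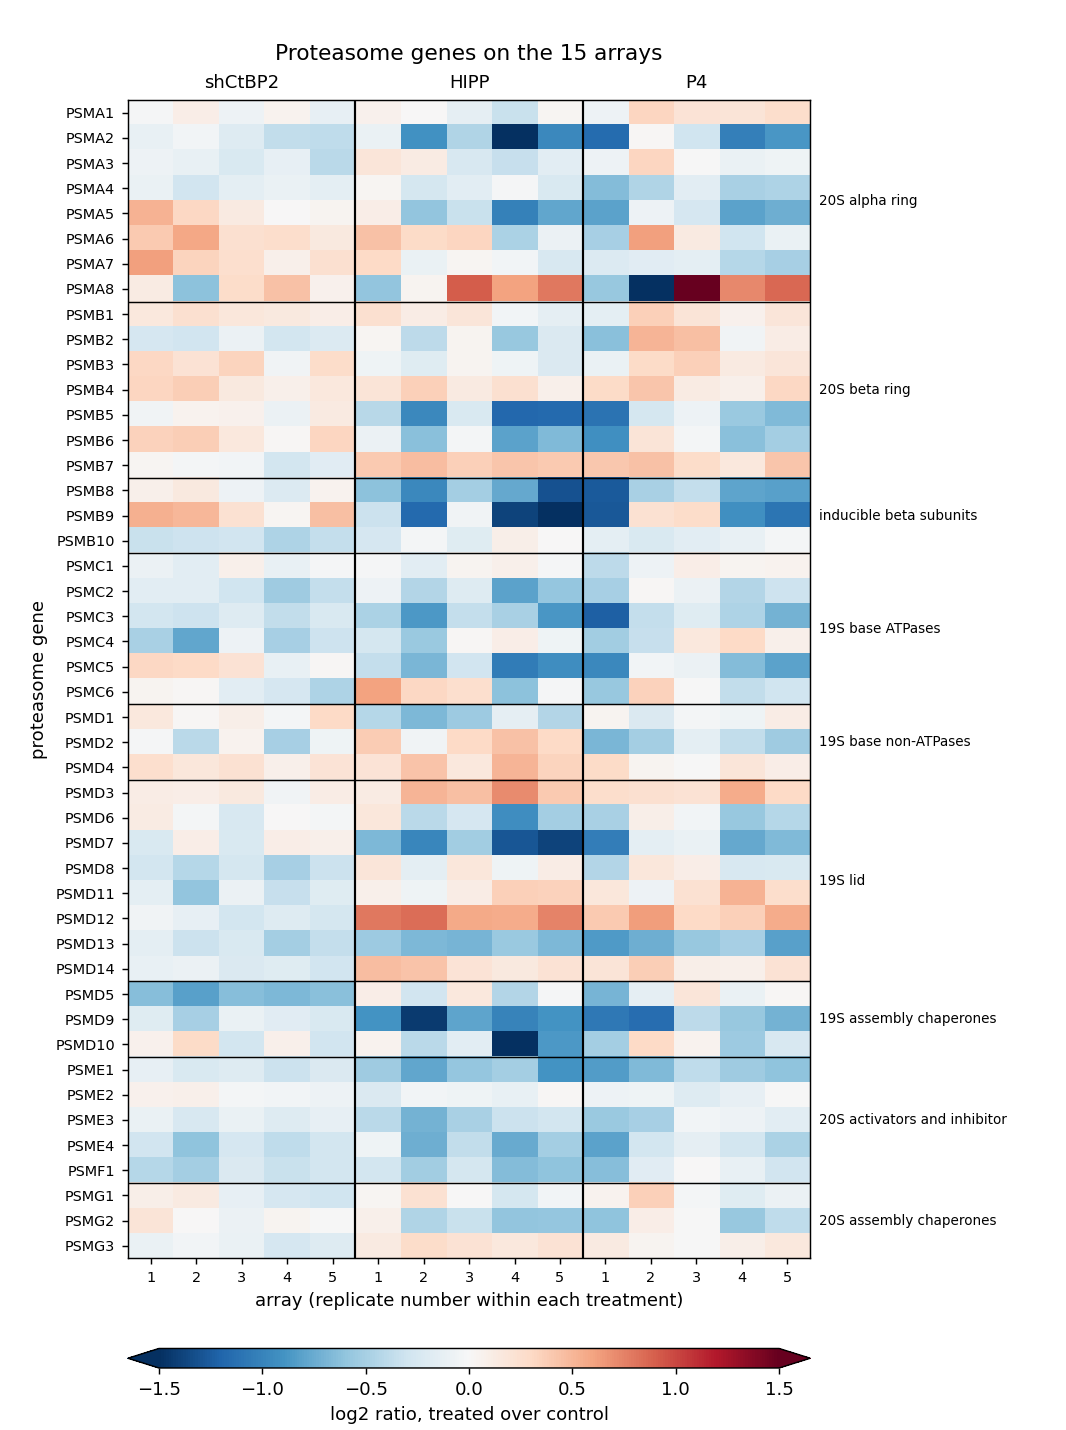
Log2 ratio of treated over control signal (colour) for the 46 subunit, regulator and chaperone genes (rows, by role) on the 15 arrays (columns, by treatment and replicate). PSMB8, PSMD7, PSMD9, PSMD13 and PSME1 are blue on all HIPP and P4 arrays and PSMD12 and PSMB7 are red on them. PSMA8, which was not well above background, varies without order.

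The standard catalytic subunits moved in different directions. PSMB5 had log2 ratios of -0.42, -0.97, -0.23, -1.18 and -1.17 on the HIPP arrays 1 to 5 and of -1.11, -0.26, -0.08, -0.56 and -0.67 on the P4 arrays. All 10 values lay below 0, and the shCtBP2 arrays ranged from -0.09 to 0.13. The means were -0.79 ± 0.44 with HIPP (adjusted p = 0.000569) and -0.54 ± 0.40 with P4 (adjusted p = 0.0153), each n = 5 with limma. With P4 the call was lost without replicate 1 (-0.39, adjusted p = 0.0598) or replicate 5 (-0.50, adjusted p = 0.0534) and on background-subtracted signals (-0.25, adjusted p = 0.372).

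PSMB7 went the other way and with little spread. Its log2 ratios were 0.40, 0.46, 0.35, 0.41 and 0.39 on the HIPP arrays and 0.40, 0.44, 0.28, 0.16 and 0.42 on the P4 arrays. All lay above the highest shCtBP2 value of 0.03. The means were 0.40 ± 0.04 with HIPP (adjusted p = 0.000341) and 0.34 ± 0.12 with P4 (adjusted p = 0.00283). PSMB6 was down-regulated with HIPP, at -0.44 ± 0.36 (adjusted p = 0.0252), and had -0.38 ± 0.45 with P4 (adjusted p = 0.0678) with 1 P4 array at 0.19. Its call with HIPP was lost without replicate 2, 4 or 5 (adjusted p up to 0.102), and with P4 it was called without replicate 2 (adjusted p = 0.0207) or 3 (adjusted p = 0.0492).

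Of the inducible counterparts, PSMB8 was down-regulated by both inhibitors and PSMB9 by HIPP, and PSMB10 by neither. PSMB8 had -0.62, -0.96, -0.51, -0.76 and -1.31 on the HIPP arrays and -1.25, -0.48, -0.36, -0.79 and -0.82 on the P4 arrays. Every one of these values was below the lowest shCtBP2 value of -0.21. The means were -0.83 ± 0.32 with HIPP (adjusted p = 9.13e-05) and -0.74 ± 0.35 with P4 (adjusted p = 0.000678), a signal of 56.2% and 59.8% of the control.

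PSMB9 had -0.32, -1.17, -0.06, -1.39 and -1.52 on the HIPP arrays, a mean of -0.89 ± 0.66 (adjusted p = 0.0077). On the P4 arrays it had -1.27, 0.23, 0.27, -0.92 and -1.09, so that replicates 2 and 3 were above 0 and the other 3 far below. The P4 mean of -0.56 ± 0.75 did not pass (adjusted p = 0.0951), but did without replicate 2 (-0.75, adjusted p = 0.0428) or replicate 3 (-0.76, adjusted p = 0.0368). In shCtBP2 cells all 5 values were above 0, from 0.03 to 0.54, with a mean of 0.35 ± 0.22 that did not pass either (adjusted p = 0.387).

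PSMB10 was the only one of the 6 called in shCtBP2 cells. It had -0.33, -0.31, -0.29, -0.47 and -0.36 there, a narrow range around -0.35 ± 0.07 (adjusted p = 0.00521), and kept its call without each single array. With P4 its mean was -0.13 ± 0.07 (adjusted p = 0.163), and with HIPP -0.07 ± 0.14, where it was not tested.

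**Figure D2:**
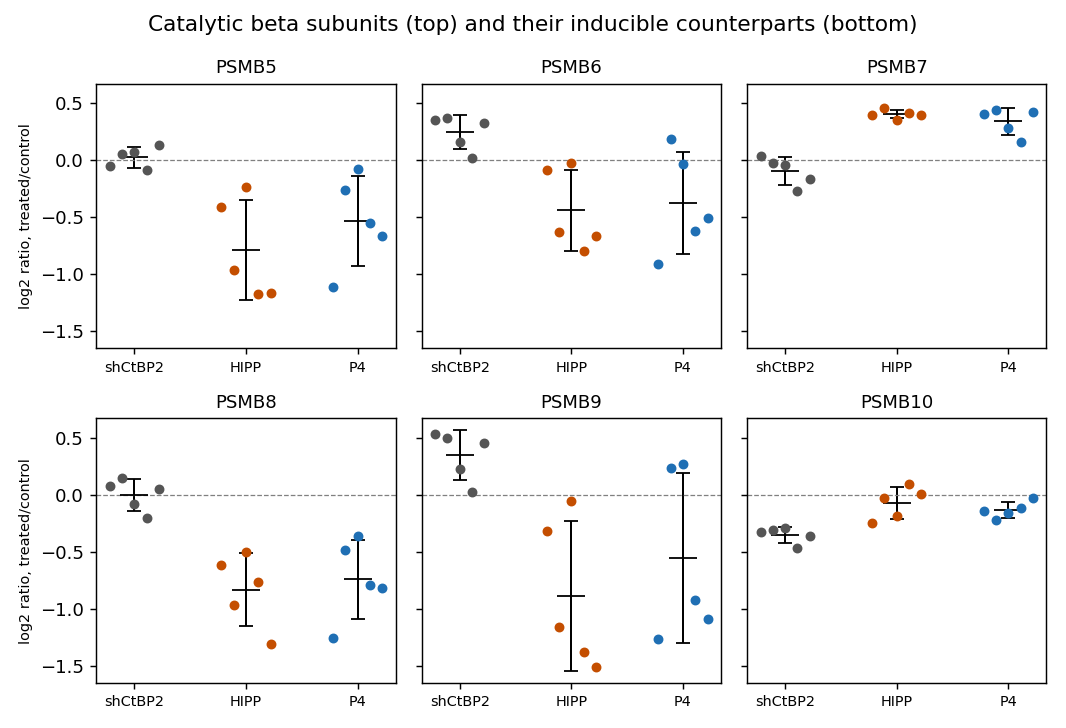
Log2 ratio of treated over control signal on each array (points, replicates 1 to 5 from left to right) for PSMB5, PSMB6 and PSMB7 (top) and their inducible counterparts PSMB8, PSMB9 and PSMB10 (bottom), with mean and SD (black, n = 5). PSMB5 and PSMB8 lie below 0 and PSMB7 above 0 on all 10 inhibitor arrays, and PSMB10 lies lowest in shCtBP2 cells, at a mean of -0.35.

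The PA28 activator, a cap that opens the core without ubiquitin recognition, is built of PSME1 and PSME2. PSME1 had -0.53, -0.79, -0.58, -0.51 and -0.90 with HIPP and -0.84, -0.67, -0.38, -0.53 and -0.61 with P4, all lower than every shCtBP2 value (-0.13 to -0.32). The means were -0.66 ± 0.17 (adjusted p = 1.46e-05) and -0.60 ± 0.17 (adjusted p = 0.000124). Its partner PSME2 stayed within -0.22 and 0.07 on all 15 arrays and was not called, with adjusted p of 0.32 for HIPP, 0.29 for P4 and 0.989 for shCtBP2. On background-subtracted signals it was called higher, at 0.24 in shCtBP2 cells (adjusted p = 0.0324) and 0.28 with P4 (adjusted p = 0.00764). The PSME1 probes had -0.86 and -0.46 with HIPP and -1.01 and -0.20 with P4, and with only the brightest probe of each gene the P4 call was lost (-0.20, adjusted p = 0.0592), while the HIPP value was -0.46 (adjusted p = 0.000151).

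Taking PSMB8, PSMB9, PSMB10, PSME1 and PSME2 as the immunoproteasome set, 3 of 4 tested were down-regulated with HIPP, 2 of 5 with P4 and 1 of 4 in shCtBP2 cells, and none of those tested was up-regulated. Over all genes tested, 23.9%, 14.8% and 6.95% were lower. Their median log2 ratio was -0.66 with HIPP, -0.56 with P4 and 0.00 in shCtBP2 cells. Among the 14 antigen-processing genes listed beside them, 3 were up-regulated and 2 down-regulated of 10 tested with HIPP, where 24.9% and 23.9% of all genes tested were called. With P4 10 of the 14 were not tested and none of the other 4 was called, and in shCtBP2 cells 1 of 11 tested, the interferon regulator IRF1, was lower. The genes of this list given here are named after their values were seen. B2M, the light chain of class I molecules, had 0.78 ± 0.21 with HIPP (adjusted p = 1.95e-05), and HLA-E and HLA-C were the other 2 that rose. The peptide transporter gene TAP2 was lower at -0.62 ± 0.34 (adjusted p = 0.00661). TAP1, which lies next to PSMB9 and encodes the partner chain of TAP2, had 0.27 ± 0.23 with HIPP (adjusted p = 0.0563) and 0.29 ± 0.15 with P4 (adjusted p = 0.0559), opposite in sign to PSMB9. With each inhibitor TAP1 was called higher under 5 alternatives and changed sign under 1.

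Among the structural core genes, the alpha ring had 2 of 6 tested members down-regulated with HIPP, beside 23.9% of all genes tested, and 3 of 5 with P4, beside 14.8%, and of the other beta ring genes PSMB3 was tested in all 3 treatments and not called, PSMB2 was tested with P4 alone and not called, and PSMB1 was not tested. PSMA2 showed the widest swing of the well measured alpha genes. It had -0.10, -0.91, -0.45, -1.99 and -0.96 with HIPP and -1.16, 0.01, -0.30, -1.02 and -0.87 with P4, with HIPP replicate 4 lowest and P4 replicate 2 at about 0. The means were -0.88 ± 0.71 (adjusted p = 0.00336) and -0.67 ± 0.50 (adjusted p = 0.0284), the latter lost without replicate 1, 4 or 5 (adjusted p up to 0.102). PSMA5, named after its values were seen, was called lower with both, at -0.52 ± 0.43 and -0.53 ± 0.35, and PSMA4 was called lower with P4, at -0.44 ± 0.18, and not tested in the other treatments, where it had -0.13 with HIPP and -0.16 in shCtBP2 cells.

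PSMA7 was the only member up-regulated in shCtBP2 cells. It had 0.62, 0.34, 0.25, 0.07 and 0.25, a mean of 0.30 ± 0.20 with an adjusted p of 0.0496, and lost this call when any single array was left out (adjusted p up to 0.201). With P4 it lay below 0 on all 5 arrays, at -0.29 ± 0.16, and was not tested. PSMB4 was slightly up-regulated with both inhibitors, at 0.20 ± 0.11 with HIPP (adjusted p = 0.0471) and 0.24 ± 0.14 with P4 (adjusted p = 0.031), and had 0.21 ± 0.13 in shCtBP2 cells (adjusted p = 0.0872). The calls were lost without HIPP replicate 1, 2, 3 or 4 (adjusted p up to 0.151) and without P4 replicate 1, 2 or 5 (adjusted p up to 0.0966). It lay above 0 on all 15 arrays, and its differences from shCtBP2 cells, in which a dye effect of the probe cancels, were -0.01 with HIPP (adjusted p = 0.942) and 0.03 with P4 (adjusted p = 0.908).

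In the 19S regulatory particle, which has 17 genes here, 7 were down-regulated and 3 up-regulated of 12 tested with HIPP, beside 23.9% and 24.9% of all genes tested. With P4 5 and 2 of 12 tested were called, beside 14.8% and 17.1%, and in shCtBP2 cells 3 and 0 of 9, beside 6.95% and 6.59%. The lid, which holds the deubiquitinating subunit, contained the highest member with both inhibitors. PSMD12, a scaffold subunit of the lid, had 0.80, 0.83, 0.57, 0.56 and 0.75 with HIPP and 0.39, 0.63, 0.30, 0.35 and 0.55 with P4. All 10 values were above every shCtBP2 value, which ran from -0.27 to -0.05. Its means were 0.70 ± 0.13 (adjusted p = 4.07e-06) and 0.45 ± 0.14 (adjusted p = 0.000714) and its pair of probes differed by 0.02 in shCtBP2 cells and by less with the inhibitors. On mean signals without dye correction, where all genes had a median of -0.397 with HIPP and -0.25 with P4, it had 0.019 (adjusted p = 0.961) and 0.46 (adjusted p = 0.301), and the P4 call was also lost in the methods' t-test (adjusted p = 0.0985).

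PSMD7, the partner of the deubiquitinase in the lid, had -0.67, -0.98, -0.52, -1.28 and -1.39 with HIPP and -1.03, -0.15, -0.10, -0.77 and -0.66 with P4. The HIPP mean was -0.97 ± 0.37 (adjusted p = 7.8e-05) and the P4 mean -0.54 ± 0.41 (adjusted p = 0.0125), with P4 replicates 2 and 3 again the highest and the P4 call lost without replicate 4 (adjusted p = 0.0516) and on background-subtracted signals (-0.34, adjusted p = 0.185). PSMD14, the deubiquitinase itself, was above 0 on all HIPP and P4 arrays, at 0.29 ± 0.14 and 0.19 ± 0.12, and below 0 on all shCtBP2 arrays, at -0.18 ± 0.08, but was removed by the filter in both inhibitor groups and had an adjusted p of 0.144 in shCtBP2 cells.

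PSMD13, another lid subunit, was called lower in each of the 3 treatments, although with slide as a fixed block the shCtBP2 value was -0.24 (adjusted p = 0.299). It had -0.54, -0.67, -0.70, -0.56 and -0.67 with HIPP (mean -0.63 ± 0.07, adjusted p = 1.27e-05) and -0.85, -0.74, -0.57, -0.50 and -0.81 with P4 (mean -0.69 ± 0.15, adjusted p = 2.28e-05). In shCtBP2 cells it had -0.14, -0.32, -0.23, -0.51 and -0.35, a mean of -0.31 ± 0.14 (adjusted p = 0.017) whose call was lost without replicate 2, 4 or 5 (adjusted p up to 0.0847). Its differences from shCtBP2 cells, in which a dye effect of the probe cancels, were -0.32 with HIPP (adjusted p = 0.0474) and -0.38 with P4 (adjusted p = 0.0374).

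PSMD3 was up-regulated with both inhibitors, at 0.43 ± 0.21 with HIPP (adjusted p = 0.000738) and 0.31 ± 0.14 with P4 (adjusted p = 0.0125). Its probes gave unequal values, 0.73 and 0.14 with HIPP and 0.57 and 0.06 with P4, and the P4 call was lost without replicate 4 (adjusted p = 0.0634). PSMD8, also of the lid, was tested in shCtBP2 cells alone, where it had -0.36 ± 0.10 (adjusted p = 0.022), a call lost without replicate 2, 4 or 5 (adjusted p up to 0.089).

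In the base, the ATPase ring unfolds substrates and PSMD4 binds ubiquitin chains. Of the 6 ATPase genes, 3 of 5 tested were down-regulated with HIPP, 2 of 4 with P4 and 1 of 5 in shCtBP2 cells, beside 23.9%, 14.8% and 6.95% of all genes tested, and none of those tested was up-regulated. PSMC3 had -0.48, -0.86, -0.36, -0.48 and -0.87 with HIPP and -1.22, -0.36, -0.18, -0.47 and -0.71 with P4. All 10 were below 0, with means of -0.61 ± 0.24 (adjusted p = 0.000965) and -0.59 ± 0.40 (adjusted p = 0.00275), beside -0.27 ± 0.07 in shCtBP2 cells (adjusted p = 0.167). PSMC4 was the ATPase called in shCtBP2 cells, at -0.43 ± 0.26 (adjusted p = 0.0448), and lost the call without replicate 1, 2, 4 or 5 (adjusted p up to 0.178).

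PSMD4 was above 0 on all HIPP arrays, at 0.33 ± 0.15 (adjusted p = 0.00246), and had 0.12 ± 0.12 with P4 (adjusted p = 0.238), where it passed on its brightest probe (0.26, adjusted p = 0.0181) and on background-subtracted signals (0.27, adjusted p = 0.00257). The ubiquitin receptor ADRM1, which docks on the base and lies outside the name rule, had -0.29 ± 0.34 with HIPP (adjusted p = 0.091) and 0.01 ± 0.32 with P4 (adjusted p = 0.973). Of the scaffold subunits of the base, named after their values were seen, PSMD1 was lower with HIPP at -0.44 ± 0.20 and PSMD2 was lower with P4 at -0.45 ± 0.20, where PSMD2 had 0.27 ± 0.19 with HIPP and was not tested.

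The base is assembled on chaperones that leave the finished particle. PSMD5 had -0.64, -0.82, -0.64, -0.68 and -0.62 in shCtBP2 cells, a mean of -0.68 ± 0.08 or 62.4% of the control (adjusted p = 0.00156). None of these values overlapped the HIPP arrays, which ran from -0.44 to 0.16, while 1 P4 array reached -0.69. Both of its probes were low in shCtBP2 cells, at -0.61 and -0.75, and the call held without each single array (adjusted p up to 0.00974). With slide as a fixed block the value was -0.65 with an adjusted p of 0.0741.

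PSMD9 was the lowest member with each inhibitor. It had -0.90, -1.43, -0.80, -1.001 and -0.90 with HIPP and -1.07, -1.14, -0.40, -0.56 and -0.71 with P4, with means of -1.004 ± 0.25 (adjusted p = 6.8e-06) and -0.78 ± 0.32 (adjusted p = 0.000242). These means hide a disagreement between its probes. The probe at chr12:120817958-120818017 (hg17) had -1.81 with HIPP and -1.18 with P4, and the probe spanning a junction at chr12:120816553-120816951 had -0.20 and -0.38. With only the brightest probe of each gene the HIPP call was lost (-0.20, adjusted p = 0.115), and P4 had -0.38 (adjusted p = 0.0127). Of the chaperones of the core, PSMG3 was slightly up-regulated with HIPP, at 0.20 ± 0.06 (adjusted p = 0.0214), PSMG2 was down-regulated with HIPP, at -0.37 ± 0.27 (adjusted p = 0.0167), and PSMG1 was called in none, with means of -0.09, -0.01 and 0.02 for shCtBP2, HIPP and P4. The calls were lost without HIPP replicate 2, 3 or 5 for PSMG3 (adjusted p up to 0.0682) and without replicate 4 or 5 for PSMG2 (adjusted p up to 0.0689).

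**Figure D3:**
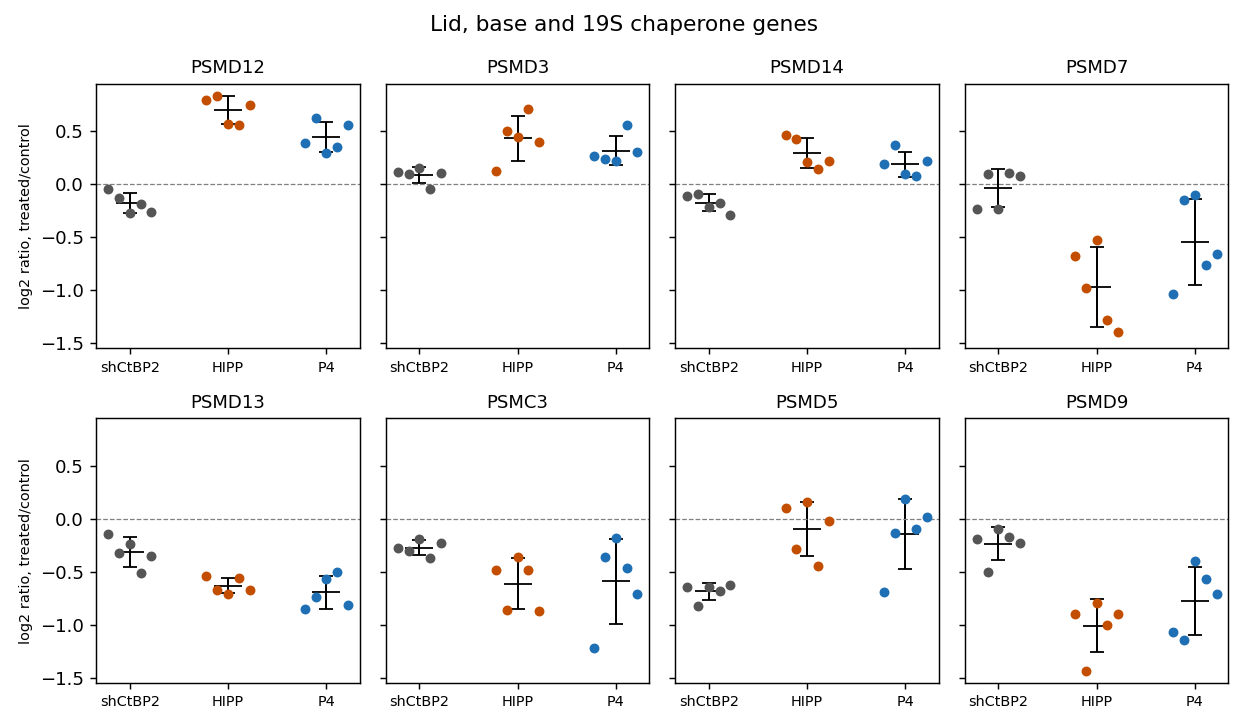
Log2 ratio of treated over control signal on each array (points, replicates 1 to 5 from left to right) for lid, base and 19S chaperone genes, with mean and SD (black, n = 5). PSMD12 lies above 0 and PSMD13 and PSMD9 below 0 on all HIPP and P4 arrays, and PSMD5 is lowest in shCtBP2 cells, at a mean of -0.68.

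The remaining caps and the inhibitor of the core were below 0 on average in every treatment. PSME4, a nuclear activator linked to histone degradation, had -0.49 ± 0.29 with HIPP (adjusted p = 0.00258), -0.36 ± 0.14 in shCtBP2 cells (adjusted p = 0.05, not called as fitted but called under 6 alternatives) and -0.39 ± 0.26 with P4, where it was not tested. PSMF1, an inhibitor of the core, was lower with HIPP at -0.46 ± 0.18 (adjusted p = 0.00123) and in shCtBP2 cells at -0.35 ± 0.12 (adjusted p = 0.0262), the latter lost without replicate 1, 2, 4 or 5 (adjusted p up to 0.104) and with only its brightest probe (-0.20, adjusted p = 0.0591). PSME3, the nuclear PA28 form, had -0.44 ± 0.17 with HIPP, -0.27 ± 0.24 with P4 and -0.15 ± 0.07 in shCtBP2 cells. It was tested in shCtBP2 cells alone, where limma did not call it (adjusted p = 0.311). With HIPP and P4 it had been removed by the filter. Its probes were up to 0.74 apart with HIPP, where the brightest had -0.80.

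Among the 16 members with more than 1 probe, probe means differed by 0.30 or less in shCtBP2 cells except for PSMD9, at 0.55. With HIPP the probes of 1 gene were up to 1.60 apart among the subunits and chaperones, again for PSMD9. PSMB1 had probes on both sides of 0, at -0.20 and 0.34 with HIPP and -0.12 and 0.39 with P4.

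**Figure D4:**
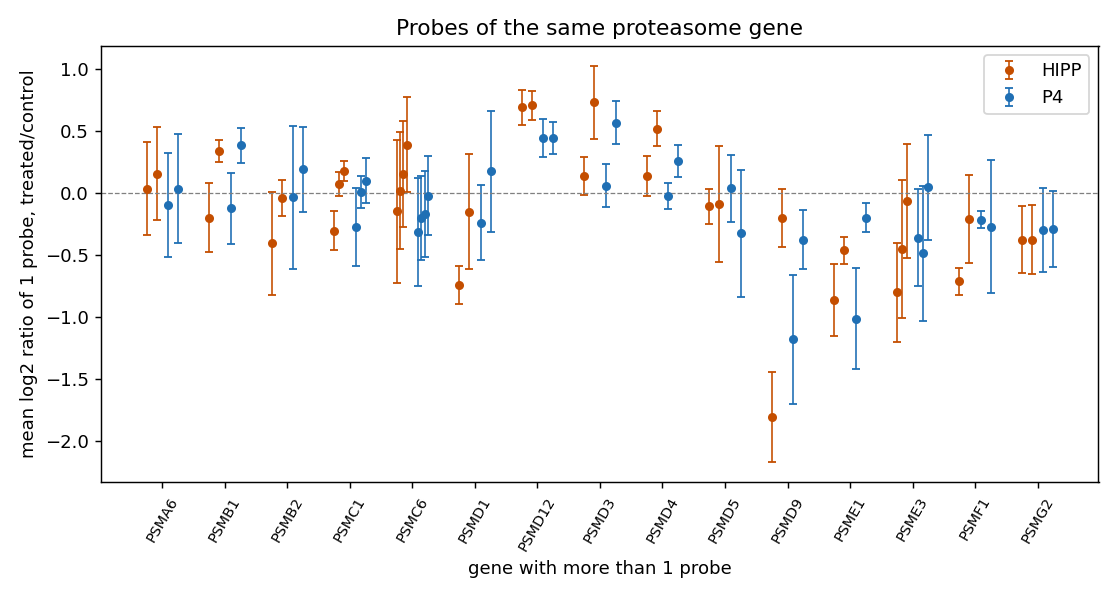
Mean log2 ratio of treated over control signal of each probe (points, with SD over 5 arrays) for the 15 subunit and chaperone genes with more than 1 probe, with HIPP (orange) and P4 (blue). The PSMD12 probes coincide near 0.70 with HIPP, whereas those of PSMD9 lie at -1.81 and -0.20.

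The members did not respond evenly over the arrays of one treatment. The median over the 48 members was -0.50 on P4 replicate 1, -0.05 and -0.01 on replicates 2 and 3, and -0.26 and -0.21 on replicates 4 and 5. Over all genes, the medians of P4 replicates 1 to 5 were -0.116, -0.008, 0.093, 0.092 and 0.125. On the HIPP arrays the member median was 0.03, -0.23, -0.06, -0.34 and -0.19, with replicates 1 and 3 nearest 0. On the shCtBP2 arrays it ran only from -0.14 to -0.01.

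The immunoproteasome set varied in the same arrays, with medians of -0.84, -0.22, -0.19, -0.53 and -0.61 on the P4 arrays and -0.32, -0.79, -0.18, -0.51 and -0.90 on the HIPP arrays. From the lowest to the highest array PSMD12 spanned 0.28 with HIPP and 0.33 with P4, and PSMB7 spanned 0.11 and 0.28. PSMA2 spanned 1.89 and 1.17 and PSMB9 1.46 and 1.54, which puts the latter genes low on some arrays of a treatment and near 0 on others. P4 replicate 1 also had the fewest gene spots well above background in the control channel of its group, 66.4%, and its part in these medians was not tested. Without P4 replicate 1, 10 members were lower and 4 higher with P4, and without replicate 2 or 3 16 were lower.

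**Figure D5:**
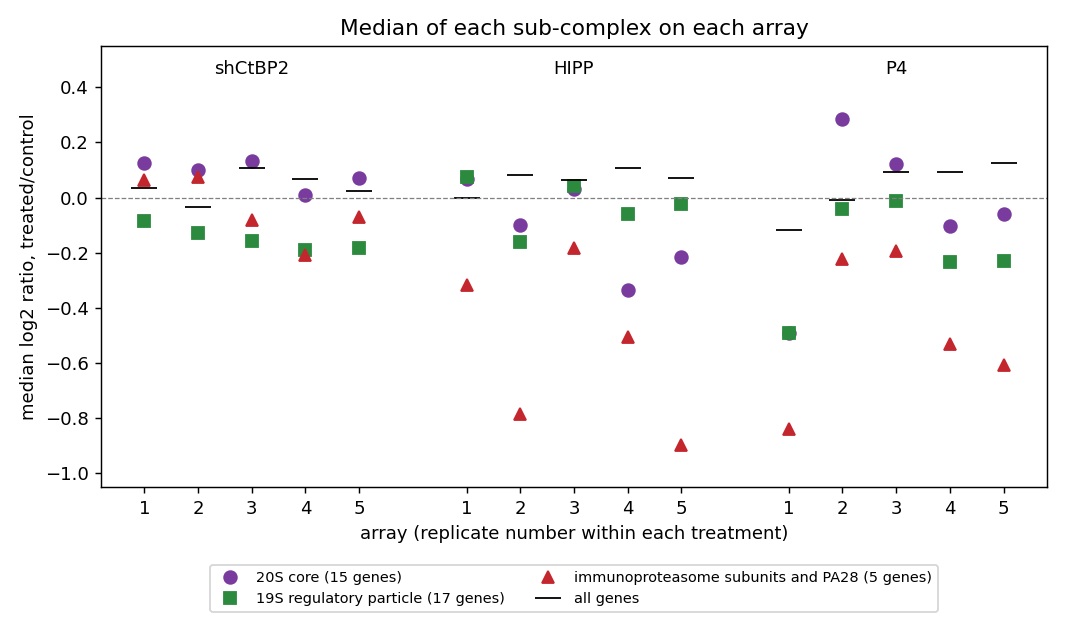
Median log2 ratio of treated over control signal of the 20S core (circles), the 19S regulatory particle (squares), the immunoproteasome subunits with PA28 (triangles) and all genes (bars) on each of the 15 arrays. The triangles lie below all genes on each HIPP and P4 array, and P4 replicate 1 and HIPP replicate 5 have the lowest, at -0.84 and -0.90.

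A difference between a treatment and shCtBP2 cells cancels a dye effect of the probe. It does not cancel a difference between the control cells, and the labels and the methods name different controls for shCtBP2 cells. For this test a gene had to be kept by the interquartile filter in either group, so members not tested in a treatment could enter it. Between HIPP and shCtBP2, 18 members differed, 7 higher and 11 lower with HIPP, while 27.4% of all genes tested differed (12.8% higher and 14.6% lower). Between P4 and shCtBP2, 13 differed, 5 higher and 8 lower with P4, while 12.9% of all genes tested differed (6.44% in each direction). This count fell to between 4 and 8 without each shCtBP2 or P4 array other than P4 replicate 3. The last of them, PSMC5, lay just inside the threshold, with an adjusted p that rounds to 0.05. PSMD12 was 0.88 ± 0.11 (SE) higher with HIPP (adjusted p = 3.75e-05) and 0.62 ± 0.11 higher with P4 (adjusted p = 0.0021) than in shCtBP2 cells. PSMB9 had the largest HIPP difference of the members called, -1.24 ± 0.35 (adjusted p = 0.0153), and PSMD5 was 0.58 ± 0.16 higher with HIPP (adjusted p = 0.0156).

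Slides hold parts of these groups. On slide 3, which held HIPP replicates 4 and 5 and shCtBP2 replicates 1 and 2, PSMD12 differed by 0.74, PSMB9 by -1.97, PSMB5 by -1.17, PSMB8 by -1.15 and PSMD5 by 0.50 between HIPP and shCtBP2, without a test. The HIPP means on slides 2 and 3 were -0.51 and -1.45 for PSMB9, -0.54 and -1.17 for PSMB5 and -0.70 and -1.04 for PSMB8. For PSMD12 they were 0.73 and 0.65, and for PSMD5 -0.009 and -0.23. With slide as a fixed block, 11 members differed between HIPP and shCtBP2 and 0 between P4 and shCtBP2. Of the calls given above, those with P4 of PSMB4 (adjusted p = 0.414), PSMB5 (0.0591), PSMB7 (0.131), PSMC3 (0.108), PSMD3 (0.155), PSMD7 (0.0575), PSMD9 (0.117), PSMD12 (0.0942), PSMA4 (0.12) and PSMD2 (0.222) were lost under this block, as was that of PSMC3IP (0.057), while those of PSMA2 (0.0439), PSMA5 (0.0281), PSMB8 (0.0364), PSMC5 (0.031), PSMD13 (0.0174) and PSME1 (0.0442) passed. With HIPP the calls of PSMB4 (0.389), PSMB6 (0.0636), PSMD6 (0.0526), PSMG2 (0.0559) and PSMG3 (0.217) were lost, and in shCtBP2 cells those of PSMC4 (0.0641), PSMD5 (0.0741), PSMD8 (0.301), PSMD13 (0.299) and PSMF1 (0.323). The methods' t-test compares the log2 signals of both channels. In it the HIPP calls of PSMA2 (0.075), PSMB4 (0.543), PSMB5 (0.0587), PSMB6 (0.146), PSMB7 (0.0827) and PSMB9 (0.0719) were lost. So were those of PSMC3 (0.0531), PSMD3 (0.154), PSMD4 (0.164), PSME4 (0.114), PSMF1 (0.0887), PSMG2 (0.203) and PSMG3 (0.403). Only 5 members stayed lower with HIPP, namely PSMB8, PSMD7, PSMD9, PSMD13 and PSME1. The HIPP calls of PSMA5, PSMC2, PSMC5, PSMD1, PSMD6 and PSMD10 were thus lost too. The same test lost the P4 calls of PSMA2 (0.115), PSMB4 (0.466), PSMB5 (0.146), PSMB7 (0.264) and PSMC3 (0.0698). Also lost with P4 were PSMD3 (0.357), PSMD7 (0.207), PSMD12 (0.0985) and PSMD13 (0.0908). Only 3 members stayed lower with P4, namely PSMB8, PSMD9 and PSME1. The P4 calls of PSMA4, PSMA5, PSMC3IP, PSMC5 and PSMD2 were thus lost too. In shCtBP2 cells the test lost the calls of PSMA7 (0.0619) and PSMC4 (0.132). With only the arrays of a treatment in the fit, calls were lost for PSMB4, PSMB6, PSMD4, PSMG2 and PSMG3 with HIPP. With P4 they were lost for PSMA2, PSMB4, PSMB5, PSMB7, PSMC3, PSMD3 and PSMD7, and in shCtBP2 cells for PSMA7. This fit left 14 members lower with HIPP and 6 with P4, so calls of members not listed for it were lost too. Background-subtracted signals also ended the calls of PSMB6 and PSMG3 with HIPP, PSMA2 with P4 and PSMD8 in shCtBP2 cells. Mean signals without dye correction ended those of PSMA2, PSMB4, PSMB5, PSMB7, PSMC3, PSMD3, PSMD7, PSMD12 and PSME1 with P4. In shCtBP2 cells they ended those of PSMA7, PSMB10, PSMC4, PSMD5, PSMD8, PSMD13 and PSMF1. Background-subtracted signals left 17 members lower with HIPP and 9 with P4, and uncorrected mean signals 4 with P4. Calls of members not listed for these settings were thus lost too. P4 and shCtBP2 share no slide, and the block then rests on the link through the HIPP arrays, so that slide and group cannot be fully told apart for P4. HIPP and P4 were not tested against each other, since the methods name different doses for them.

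Genes of the NRF1 pathway were examined around the proteasome. Of the 7 listed, 5 were up-regulated and 1 down-regulated with HIPP, against 24.9% and 23.9% of all genes tested, and 3 and 1 of 5 tested with P4, against 17.1% and 14.8%. None of the 6 tested in shCtBP2 cells was called. NFE2L1 had 0.82, 1.28, 1.21, 1.37 and 1.59 on the HIPP arrays, a mean of 1.25 ± 0.28 (adjusted p = 1.58e-07), and 0.27 ± 0.15 with P4 (adjusted p = 0.0487), where the call was lost without replicate 1, 2, 4 or 5 (adjusted p up to 0.174). Its 4 probes ran from 0.82 to 1.94 with HIPP and from -0.25 to 0.75 with P4, and on the brightest the values were 0.82 (adjusted p = 0.00623) and 0.031 (adjusted p = 0.925). With slide as a fixed block the P4 value was 0.49 (adjusted p = 0.102). Its small MAF partners MAFG, MAFF and MAFK had 0.84, 0.57 and 0.95 with HIPP, each called higher. NFE2L2, the related factor NRF2, was lower with HIPP at -0.94 ± 0.45 (adjusted p = 0.000106). The MAF genes and NFE2L2 are named after their values were seen.

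Of 12 proteasome-associated genes, all tested with HIPP, 4 were up-regulated and 1 down-regulated. Over all genes tested, 24.9% and 23.9% were called. With P4 2 of 8 tested were up-regulated, beside 17.1%, and in shCtBP2 cells 1 of 8 tested, the proteasome adaptor gene ECPAS, was lower at -0.47 ± 0.08 (adjusted p = 0.0293), named after its values were seen. ZFAND5, a zinc-finger protein that activates the proteasome, had 1.75, 1.69, 1.78, 1.57 and 2.17 with HIPP (mean 1.79 ± 0.23, adjusted p = 9.61e-09) and 0.92 ± 0.23 with P4 (adjusted p = 1.6e-05), and passed both fold thresholds. Its 5 probes disagreed. The brightest had 0.0036 with HIPP (adjusted p = 0.975) and 0.32 with P4 (adjusted p = 0.00815), and the other 4 ran from 2.01 to 2.48 with HIPP and from 1.004 to 1.15 with P4. USP14, a deubiquitinase of the 19S particle, was down-regulated with HIPP, at -0.47 ± 0.31 (adjusted p = 0.00365), a call lost on its brightest probe (-0.20, adjusted p = 0.239). POMP, the maturation factor of the core, had -0.34 ± 0.37 (adjusted p = 0.0804), and was called lower with slide as a fixed block, at -0.48 with HIPP (adjusted p = 0.0236) and -0.89 with P4 (adjusted p = 0.0346). Of 14 ubiquitin supply and delivery genes, 2 were up-regulated and 2 down-regulated of 10 tested with HIPP, 1 and 2 of 11 with P4, and 1 and 2 of 9 in shCtBP2 cells, beside the shares of all genes given above. SQSTM1, a shuttle for ubiquitinated cargo, was higher with HIPP, at 0.52 ± 0.21 (adjusted p = 0.00466), and with P4, at 0.54 ± 0.44 (adjusted p = 0.00712), and both calls were lost with slide as a fixed block (adjusted p = 0.0656 and 0.135).

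The 250 bases before the annotated start are printed for PSMD12, PSMD9 and PSMB9. PSMD12 was the highest member with both inhibitors, and PSMD9 the lowest on the mean of its probes, which disagreed. PSMB9 was the member with the largest difference between HIPP and shCtBP2. The printed bases come from a promoter collection built on RefSeq and GRCh38.p14, and read 5′ to 3′ along the gene's strand. The collection held a promoter for 42 of the 48 members. In the order printed, the sequences lie at chr17:67366578-67366827 on the minus strand, chr12:121888540-121888789 on the plus strand and chr6:32853942-32854191 on the plus strand. Capitals mark matches on either strand to TGACNNNGC, the core of the antioxidant response element that NRF1 and NRF2 bind, to CCAAT and to the E-box CACGTG.
PSMD12: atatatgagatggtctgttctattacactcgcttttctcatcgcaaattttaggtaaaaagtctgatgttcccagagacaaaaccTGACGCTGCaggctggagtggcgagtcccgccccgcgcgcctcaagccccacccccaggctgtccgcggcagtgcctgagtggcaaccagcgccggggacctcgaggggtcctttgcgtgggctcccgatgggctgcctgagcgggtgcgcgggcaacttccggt
PSMD9: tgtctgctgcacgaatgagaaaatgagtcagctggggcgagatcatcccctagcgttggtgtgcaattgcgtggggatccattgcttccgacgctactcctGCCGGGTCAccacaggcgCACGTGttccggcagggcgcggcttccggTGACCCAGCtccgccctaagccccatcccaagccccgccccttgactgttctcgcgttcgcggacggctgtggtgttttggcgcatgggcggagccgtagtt
PSMB9: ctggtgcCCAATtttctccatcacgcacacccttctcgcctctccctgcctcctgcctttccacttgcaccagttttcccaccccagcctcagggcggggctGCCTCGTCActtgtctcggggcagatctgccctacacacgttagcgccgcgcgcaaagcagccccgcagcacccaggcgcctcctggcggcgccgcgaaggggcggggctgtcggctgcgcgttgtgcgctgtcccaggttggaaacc
The TGACNNNGC core matched at bases 165 to 157 before the start of PSMD12, at 149 to 141 and 102 to 94 before PSMD9 and at 148 to 140 before PSMB9. In the full window of 250 bases before and 50 after the start, it was in 28.3% of the 53 member promoters (15 of 42 genes) and in 13.3% of all 35116 promoters. It was present in 2 of the 3 genes up-regulated with HIPP that have a promoter here and in 7 of the 18 down-regulated ones. The gamma-activated site TTCNNNGAA was in 15.1% of member promoters and 7.66% of all, CCAAT in 43.4% and 34.6%, CACGTG in 9.43% and 7.26%, the C/EBP-ATF element TGATGNAAN in 1.89% and 3.61%, and the heat shock element in 0 and 0.49%. No matches of different motifs overlapped in the member promoters, and a match is a string of letters and not a bound site.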

How the data were processed

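Agilent two-colour whole human genome arrays were read. Per the file headers, the authors processed the scans with Feature Extraction 9.5 (background subtraction, linear and LOWESS dye normalization) and deposited signal intensities, stored with decimal commas, and per-spot log10 ratios, which also form the deposited log10 table of the series.

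From the processed red and green intensities, log2 of Cy5 over Cy3 was taken. Flagged outlier spots (78 to 265 of 43376 per array) were left out, and probes of a gene were averaged under current RefSeq symbols. Genes on at least 3 of the 5 arrays entered limma 3.58.1 (R 4.3.3), fitted over all 15 arrays with Benjamini-Hochberg adjustment and a threshold of 0.05, after the 11% of genes that varied least by interquartile range had been removed, as the methods state. The fit was tested on simulated data. The number of arrays limits precision. Members and gene lists were chosen with earlier results of these data known. Named were the catalytic, inducible, cap and chaperone genes listed beforehand, and per treatment the 5 highest and 5 lowest called members that kept one direction on all arrays, those past the methods' fold thresholds, and pathway genes past both thresholds. Alternatives covered background, normalization, filters, probes, slide, replicate number, test and left-out arrays. A further called antigen-processing gene is not reported here.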

Additional observations from a re-analysis of the deposited data

Results flagged for a closer look

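In 3 of 105 groups of 5 arrays (35 genes in 3 treatments), a single array stood apart from the rest, by Dixon's criterion at the 95% level, which chance meets in about 1 of 20 groups. PSMD3 was lowest on shCtBP2 replicate 4 (log2 ratio -0.047) and highest on P4 replicate 4 (0.56), and PSMD5 was lowest on shCtBP2 replicate 2 (-0.82).

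The other results singled out are genes whose response to an inhibitor differed from that to CtBP2 silencing in limma's test of the difference. The log2 ratio with HIPP minus that in shCtBP2 cells was -0.82 for PSMB5, -0.69 for PSMB6, -0.83 for PSMB8, -1.24 for PSMB9, -0.93 for PSMD7, -0.77 for PSMD9, -0.44 for PSME1 and -0.32 for PSMD13. It was higher with HIPP for PSMD12 by 0.88, PSMD5 by 0.58, PSMB7 by 0.50, PSMD14 by 0.47, PSMD8 by 0.41, PSMD3 by 0.35 and PSMG3 by 0.34, and, among the pathway genes, for NFE2L1 by 1.11 and ZFAND5 by 1.69. The adjusted p-values ran from 1.7e-06 for ZFAND5 to 0.0474 for PSMD13. With only the brightest probe of each gene the HIPP difference was -0.06 for ZFAND5 (adjusted p = 0.741) and -0.24 for PSMD9 (adjusted p = 0.24). Other HIPP differences passed only there, at -0.51 for PSMF1 (adjusted p = 0.00108), -0.65 for PSME3 (0.0284) and 0.51 for SQSTM1 (0.0367).

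The log2 ratio with P4 minus that in shCtBP2 cells was -0.74 for PSMB8, -0.60 for PSMA7, -0.54 for PSMD9, -0.39 for PSME1 and -0.38 for PSMD13, and it was higher with P4 for PSMD12 by 0.62, PSMD5 by 0.54, PSMB7 by 0.44, PSMD14 by 0.36 and ZFAND5 by 0.82. The adjusted p-values ran from 0.00186 for ZFAND5 to 0.0466 for PSMD9. On the brightest probe the P4 difference was 0.25 for ZFAND5 (adjusted p = 0.161), -0.42 for PSMD9 (adjusted p = 0.0729) and -0.10 for PSME1 (adjusted p = 0.587). That of SQSTM1 was 0.57 and passed there (adjusted p = 0.0422), but not on all its probes (0.121). PSMA7 had opposite signs, 0.30 in shCtBP2 cells and -0.29 with P4. PSMD14 lay below 0 on all 5 shCtBP2 arrays and above 0 on all 10 inhibitor arrays.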

How the results depend on the processing

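Counts of members called higher and lower are given for each setting, beside the reported 1 and 6 for shCtBP2, 6 and 19 for HIPP and 4 and 13 for P4. With both thresholds of the methods they were 0 and 1, 0 and 0, and 0 and 0. With the methods' t-test after adjustment they were 1 and 5, 1 and 5, and 0 and 3, with 59.0% of all P4 calls lower in place of 46.5%, and 2, 14 and 11 of the calls of named genes were lost. With only the arrays compared they were 1 and 9, 3 and 14, and 1 and 6. With slide as a fixed block they were 1 and 1, 4 and 16, and 0 and 6, and 11 and 0 members differed from shCtBP2 for HIPP and P4. On mean signals without correction they were 0 and 1, 0 and 23, and 0 and 4, with 0 members differing in either contrast, and the median log2 ratio of all genes moved to -0.199, -0.397 and -0.25. Higher members in shCtBP2 were 2 with normexp and loess, 4 with background-subtracted signals, 0 with median-centred processed ratios, which put 60.3% of all calls on the lower side in place of 51.3%, 0 without the filter, 2 with spots well above background only and 3 with the deposited log10 table, and higher members with P4 were 7 with background-subtracted signals. Leaving out 1 array gave 0 to 0 and 2 to 6 for shCtBP2, 4 to 5 and 14 to 19 for HIPP, 3 to 4 and 9 to 16 for P4, and 13 to 22 and 4 to 11 members differing from shCtBP2 for HIPP and P4; shCtBP2 lower calls fell to 2 without replicate 2, 4 or 5, and members differing between P4 and shCtBP2 to between 4 and 8 without each shCtBP2 or P4 array other than P4 replicate 3. The labels do not say that replicate numbers pair the arrays, and deviations of same-numbered arrays correlated over 0.1 in 13 of 15 pairs (-0.0279 to 0.472), with 7 of 15 arrays closest to their own number, so the pairing is a hint from the data and was not used. The replicate block gave 1 and 7, 6 and 19, and 5 and 14, and with it POMP (adjusted p = 0.0028 with HIPP and 0.0222 with P4), TAP1 (0.0163 and 0.0171) and ADRM1 with HIPP (0.0362) passed. These also passed elsewhere, POMP with slide as a fixed block, TAP1 under 5 alternatives per inhibitor and ADRM1 under 4, the replicate block included. Among values that were tested, signs changed on mean signals without correction for PSMB4 (-0.25), PSMB7 (-0.074), PSMD3 (-0.25), PSMD4 (-0.32), PSMG3 (-0.48), SQSTM1 (-0.26) and TAP1 (-0.43) with HIPP, PSMD14 (0.016) and PSME2 (0.27) in shCtBP2, and PSME2 (0.22) and ADRM1 (-0.038) with P4. With slide as a fixed block they changed for PSMA2 (0.42), NFE2L1 (-0.11) and ZFAND5 (-0.051) in shCtBP2 and for PSMB10 (0.028), PSMC4 (0.26), PSMG1 (-0.26) and TAP1 (-0.045) with P4. Background-subtracted signals turned PSME2 (0.24) and PSMG2 (-0.00447) in shCtBP2 and PSME2 (0.28) with P4, normexp turned PSME2 (0.040) in shCtBP2 and ADRM1 (-0.054) with P4, median centring PSMG1 (-0.0074) and ADRM1 (-0.020) with P4, the random slide block PSMG1 (0.00284) with HIPP and ADRM1 (-0.00424) with P4, and the brightest probe ADRM1 (-0.011) with P4 and NFE2L1 (-0.23) in shCtBP2. Without single arrays, tested values near 0 crossed it for PSMA7 (-0.087 to 0.046) and PSMG1 (-0.065 to 0.0565) with HIPP, PSMC4 (-0.16 to 0.046), PSMG1 (-0.064 to 0.070) and ADRM1 (-0.084 to 0.095) with P4, and PSME2 (-0.021 to 0.015), PSMG2 (-0.010 to 0.060), POMP (-0.038 to 0.15) and TAP1 (-0.017 to 0.15) in shCtBP2. The cause of these changes was not tested.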
